A study of Homo sapiens with 7 samples.

Results

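XPO1 was covered by eIF3a PAR-iCLIP reads in 1 dense stretch at the right, upstream end of the gene on chromosome 2, made of 5 read clusters of 3604 in the list. The clusters were chosen by position alone, as the minus-strand entries of the eIF3a list that overlapped 61705060 to 61765800 of chromosome 2 (hg19). The gene itself was picked for description with its clusters in view, so their number, reads and place are given as a description without a test. The list held 4013 entries in all, and 5 of them met the rule, 1 entry for each cluster. No cluster was near the limits of the window from outside. The next listed cluster to the right began at 62115645, 350226 nt beyond the stretch, on the minus strand with 43 reads. The next to the left ended at 60780633, 984071 nt away, also on the minus strand, with 15 reads.

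XPO1 encodes exportin 1, also called CRM1, the main receptor that carries proteins out of the nucleus. It binds cargo bearing a leucine-rich export signal together with the GTP-bound form of the small GTPase Ran, passes through the nuclear pore, and releases the cargo in the cytoplasm when Ran hydrolyses its GTP. It also takes out RNA-protein cargoes by way of adaptors, among them newly made ribosomal subunits, and it is the target of leptomycin B and selinexor. eIF3a is the large scaffold subunit of eIF3, a multi-subunit initiation factor that loads mRNA onto the small ribosomal subunit. A read cluster marks RNA that was joined to the immunoprecipitated protein, and does not by itself tell how much the gene is translated.

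The eIF3a libraries were 2 replicates from HEK293T, a line of human embryonic kidney cells expressing SV40 large T antigen. The labels name no heat shock for these cells, which were fed 4-thiouridine for 8 h and irradiated at 354 nm. RNA joined to eIF3a, which was immunoprecipitated with an antibody against it, was sequenced. The 5 other samples, m6A libraries of HEK293T after heat shock (1), of HepG2 after heat shock (2) and of HepG2 controls (2), were not analysed here. The eIF3a data came as 1 list that does not tell the replicates apart, so no value has a replicate error and no groups could be compared. The list gives each cluster a score, which is its highest read coverage, and a coverage profile. Reads per cluster are the area of the profile divided by the read length of 25 nt. The 95% intervals given with reads are exact Poisson intervals and cover counting error only. They treat each read as a separate count. No start position at XPO1 held more than 1 read, and whether reads with the same start had been merged is not stated. If they had been, reads are numbers of start positions, and the intervals do not give the counting error of the reads sequenced. How deeply the libraries were sequenced is unknown.

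The strand and chromosome of XPO1 in the RefSeq tables (GRCh38.p14) are those of the rule. Those tables give XPO1 2 transcript starts. They hold 1 gene that overlaps it, USP34-DT, a non-coding RNA gene toward the left, downstream end of XPO1. The nearest protein-coding neighbours there are FAM161A on the right and USP34 on the left. Positions in the list are on hg19, and no hg19 annotation or sequence was used here. Whether a cluster lies in an exon, an intron or an untranslated region, and how far it is from a start codon, was therefore not analysed. The direction of the profiles was read from the list: 4 intricate profiles shared between opposite strands appeared as mirror images and 0 appeared unmirrored, so profiles run from left to right on the genome. Below they are turned round to follow the transcript, and distances are counted in nt downstream from the right end of the stretch. Listed positions are uncertain by 1 nt.

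The 5 clusters lay end to end from 61765418 down to 61764705, a stretch of 715 nt when the full profiles are used. The stretch took up 1.18% of the window. Its right end was 382 nt inside the window's right limit, and the remaining 59645 nt of the window to its left held no listed cluster of the minus strand. The plus strand held 0 clusters in the whole window, so no head-to-head partner was listed at this gene. Of the 715 nt, 678 (94.8%) were covered by at least 1 read and 37 were not. The filters of the list are unknown, and an empty stretch shows only that nothing was listed there.

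**Figure D1:**
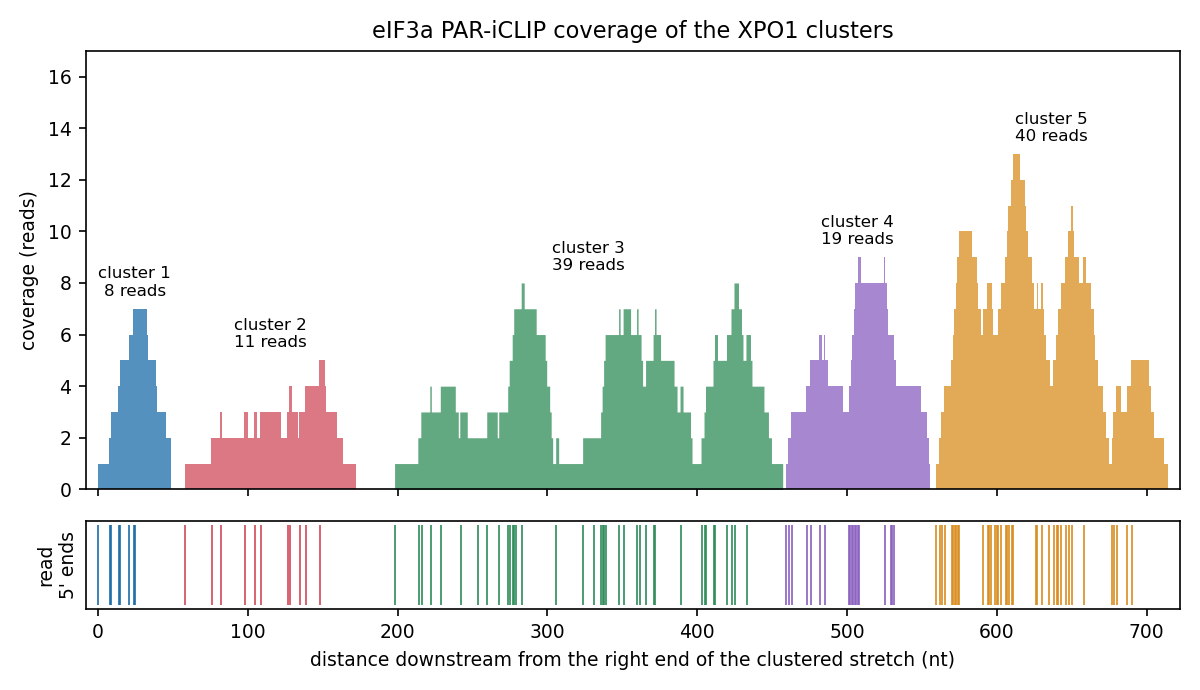
Read coverage (upper panel, in reads) and the 5′ ends of the reads (lower panel, 1 line for each) along the XPO1 stretch, against distance in nt downstream from its right end, with the 5 clusters in separate colours. Coverage reaches 13 reads in cluster 5 and stays at 5 or below in cluster 2, and the clusters are separated by 8, 25, 1 and 3 uncovered nt.

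The most upstream cluster was short and had a single summit. It was listed at 61765370 to 61765418, with a profile of 50 nt and 8 reads (95% interval 3.45 to 15.8). Its score was 7, held over 9 nt around 28 nt from the right end. The reads began at positions so close together that 7 of the 8 lay over each other at the summit. By reads it was ordinary for the list, in which 42.3% of the 3566 clusters on primary chromosomes had as many or more, and by score it was in the upper 28.0%.

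The second cluster was longer and thinner. It was listed at 61765247 to 61765360, with 11 reads (5.49 to 19.7) over 115 nt and the lowest score of the 5, which was 5. Coverage of 5 was reached on 4 nt only, around 150 nt from the right end. A smaller summit of 4 reads lay at 129 nt. Its mean coverage of 2.39 reads was the lowest of the stretch, and its read starts were the most widely spaced, with a median of 7 nt between neighbours.

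The third cluster was the longest, at 61764962 to 61765220. It spread 39 reads (27.7 to 53.3) over 260 nt, a length reached by 1.09% of primary clusters, and scored 8. It had no single summit. Counting summits as separate where coverage between them fell to 50% of the lower or less, 5 could be told apart, with 4, 8, 2, 7 and 8 reads at 234, 284, 307, 372 and 426 nt from the right end. The highest value of 8 thus occurred at 2 separate places. Coverage of 1 read was found on 48 nt, and the summit at 307 nt was only 2 overlapping reads between stretches of such coverage. The read density was 15.0 reads per 100 nt of profile (10.7 to 20.5). In the most upstream cluster, which rests on 8 reads, it was 16.0 (6.91 to 31.5).

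The fourth cluster was compact, at 61764864 to 61764959. It held 19 reads (11.4 to 29.7) over 97 nt with a score of 9. Its main summit was flat: 21 nt had a coverage of 8 or 9, and the value of 9 was reached at 2 separate places, around 509 and at 525 nt from the right end. A lower summit of 6 reads lay at 485 nt. The summit rested on a run of 8 reads whose 5′ ends fell on consecutive nucleotides, from 501 to 508 nt, the longest such run at XPO1.

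The most downstream cluster had the highest coverage of the gene. It was listed at 61764705 to 61764859, with 40 reads (28.6 to 54.5) over 156 nt and a score of 13. Its highest summit lay at 613 nt from the right end, with lower ones of 11 reads at 650 nt and 5 reads at 696 nt. Coverage was 5 reads or more on 108 nt (69.2%), against 42 nt (43.3%) in the fourth cluster, 96 nt (36.9%) in the third, 4 nt (3.48%) in the second and 24 nt (48.0%) in the most upstream. In the list, 3.42% of primary clusters had as many reads or more and 6.95% scored as high or higher.

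Taken in the direction of the transcript, the reads thus numbered 8, 11, 39, 19 and 40, and the scores were 7, 5, 8, 9 and 13. From the second cluster to the fifth each score was higher than the one before, while the reads had another order. Reads per 100 nt of profile were 16.0, 9.57, 15.0, 19.6 and 25.6. The interval was 18.3 to 34.9 for the densest, the fifth, and 4.77 to 17.1 for the thinnest, the second. These are intervals of single clusters, and no difference between clusters was tested. The list median was 10.7 reads per 100 nt.

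Windows of fixed length gave a view by equal lengths. They still hold only reads of listed clusters and start at the right end of the most upstream one. Of the windows from 0 and from 100 nt, 8 and 25 nt were uncovered. The 7 full windows of 100 nt, from the right end downstream, held the 5′ ends of 12, 8, 14, 15, 16, 27 and 25 reads. The largest number was 27 (17.8 to 39.3) and the smallest 8 (3.45 to 15.8), and no difference between windows was tested. Mean coverage in the same windows was 2.69, 2.08, 3.56, 3.78, 3.96, 5.93 and 6.88 reads. The last pair of full windows had the highest mean coverage, and every one of the 7 held reads. Past the last full window, 15 nt remained. A read of 25 nt needs more room than that, so no 5′ end could fall there or at the very end of the last full window.

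**Figure D2:**
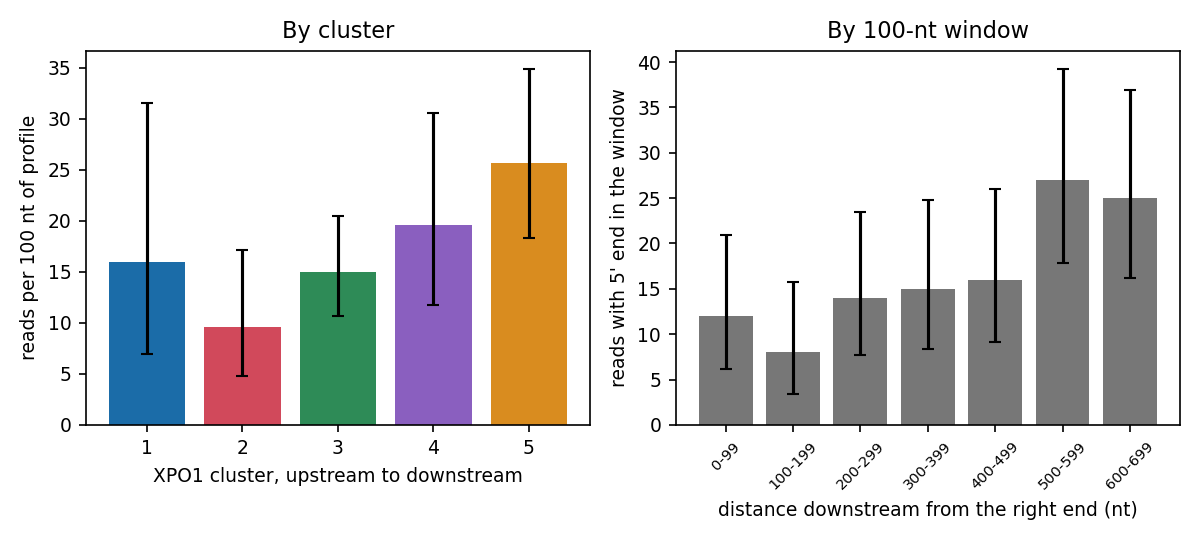
Left, reads per 100 nt of profile in each XPO1 cluster, numbered in the direction of the transcript. Right, reads whose 5′ end fell in each full 100-nt window from the right end of the stretch. Bars start at 0 and error bars are 95% exact Poisson intervals. The fifth cluster reaches 25.6 and the second 9.57 reads per 100 nt, and the windows hold between 8 and 27 reads.

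The clusters were separated by very little. From right to left the uncovered distances were 8, 25, 1 and 3 nt. None was longer than a read of 25 nt, so a single further read in each gap would have been long enough to fill it. The third and the fourth cluster were parted by 1 uncovered nt. The widest gap, between the second and the third cluster, split the stretch into an upstream part of 173 nt with 19 reads and a downstream part of 517 nt with 98 reads, which is 83.8% of the total. Whether the gaps part separate contacts was not tested.

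All 5 clusters were listed at full length, with a listed interval 1 nt shorter than the profile. The 117 reads of the gene (96.8 to 140) began at 117 different positions, with 1 read at each. With at most 1 read at each position, no score could exceed the read length of 25 nt. The highest score of the list was 24, although the largest cluster had 172 reads. Reads may therefore be numbers of different start positions across the list, which was not tested. Neighbouring reads within clusters began 1 nt apart in 38 of 112 cases (33.9%), and the share over all primary clusters was 33.9% as well (11827 of 34843). None of the 5 profiles occurred at another locus of the list, either as it stands or mirrored. In the 3 clusters with enough reads to compare stretches of 40 nt, 0 had a stretch of read starts in common with another locus. This search could not see a copy that is not itself listed.

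Set against clusters with similar reads, the XPO1 clusters differed from each other in shape. The fifth had 40 reads, a score of 13 and 156 nt, and the third had 39 reads, a score of 8 and 260 nt. The list had 77 other primary clusters with 35 to 45 reads, with scores from 7 to 22 (median 14) and lengths from 92 to 275 nt (median 157). The fifth XPO1 cluster was near both medians. Of the 77, 4 scored 8 or less, and 5 were 260 nt or longer. The fourth, with 19 reads, scored 9 over 97 nt, where 220 other clusters with 17 to 21 reads had medians of 9 and 119 nt. Of the small clusters, the most upstream scored 7 over 50 nt and the second 5 over 115 nt, where 888 other clusters with 7 to 12 reads had medians of 5 and 77 nt. No test was made of these differences, since the clusters were chosen with their values known.

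**Figure D3:**
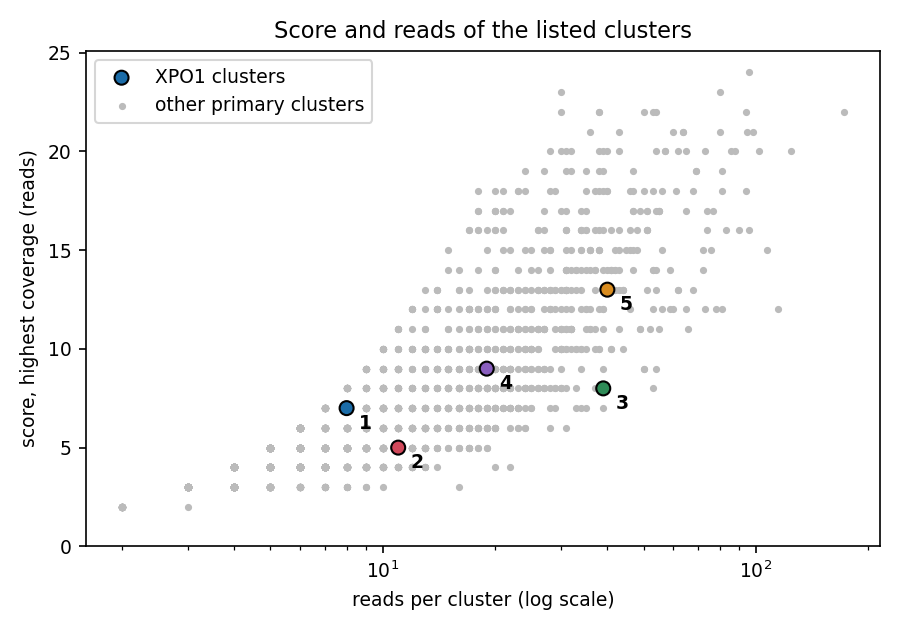
Score, the highest coverage in reads, against the number of reads (log scale) of the XPO1 clusters, numbered in the direction of the transcript, and of all other clusters on primary chromosomes (grey). Cluster 5 lies in the middle of clusters with about 40 reads, and cluster 3, with 39 reads and a score of 8, at their lower edge.

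XPO1 was among the regions of the list with the most reads. It held 0.305% of the 38419 reads in primary clusters (95% Wilson interval 0.254 to 0.365). On chromosome 2 it made up 5 of 242 clusters (2.07%) and 117 of 2323 reads (5.04%, interval 4.22 to 6.00). Both totals add up overlapping clusters separately, so reads elsewhere may be counted more than once. The intervals treat all reads as distinct and independent. Joining neighbours of the same strand up to 1000 nt from each other gave 2877 regions, of which 516 had 2 or more clusters, with a median of 16 reads. XPO1 ranked 7 by reads among all regions and 5 among those with 2 or more clusters. A region needed 5 clusters or more to equal it in number, and 13 did, itself included (12 when overlapping clusters are counted as 1 place). Reads here depend on the amount of the RNA as well as on contact with eIF3a, and these cannot be told apart in this list.

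The regions with the same number of clusters spanned more sequence with fewer reads. Besides XPO1, with its 117 reads over 714 listed nt, 2 regions had exactly 5 at this joining distance. With joining at 500 nt XPO1 was the only such region, and at 5000 nt there were 8, itself included. The closer in reads ran from 96874111 to 96875168 of chromosome 15, plus strand, and had 76 reads over 1058 nt. Its 5 clusters stood at 4 places, because those of 20 and 29 reads were listed on the same interval, at the upstream end. The others, in the direction of the transcript, had 8, 13 and 6 reads. With only the larger cluster of the shared interval counted, the region had 56 reads. The last cluster held 34.2% of the reads at XPO1, against 10.7% in that region counted in this way. The other ran from 158733692 to 158734822 of chromosome 6, plus strand, and had 17 reads over 1131 nt, in clusters of 3, 3, 3, 3 and 5 reads. Its last cluster held 29.4% of its reads, nearer to the share at XPO1. The widest gaps between listed intervals were 26 nt at XPO1, 576 nt in the chromosome 15 region and 821 nt in the chromosome 6 region. The listed intervals were shorter than their profiles in 0 clusters at XPO1, 2 in the chromosome 15 region and 1 in the chromosome 6 region, so those gaps may be overstated. These regions are given by position, because no annotation of their build was used.

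The near absence of gaps put XPO1 among the longest blocks of the list. When clusters at most 26 nt apart were joined, XPO1 became 1 block of 714 listed nt and 117 reads. Of the 3243 blocks formed in this way, 3 had more reads and 1 was longer, at 928 nt, and 3 blocks, XPO1 included, were built of 5 clusters or more. Many listed intervals elsewhere are shorter than their profiles, so blocks at other loci may in truth be longer than they appear. The XPO1 intervals were not shortened. The distance of 26 nt is the widest gap at XPO1 itself and was taken after seeing it. At 50 nt, 3 blocks had more reads, 2 were longer and 5 were built of 5 clusters or more. At 10 nt XPO1 was 2 blocks, the larger with 98 reads over 516 nt, and 6 blocks had more reads and 2 were longer.

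**Figure D4:**
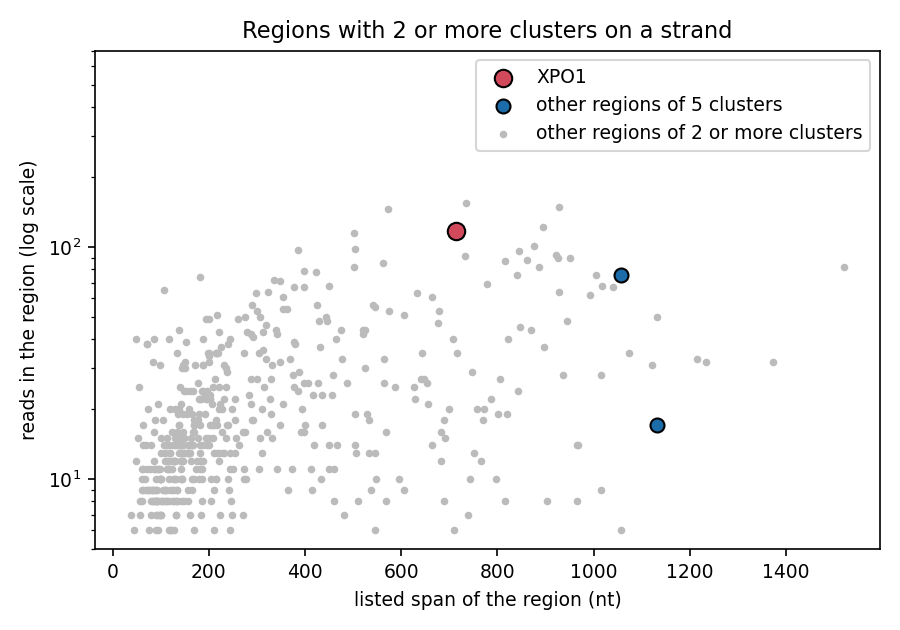
Reads (log scale) against listed span in nt for the regions of 2 or more clusters on a strand. XPO1, with 117 reads over 714 nt, lies above the other regions of 5 clusters, which hold 76 and 17 reads over 1058 and 1131 nt.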

How the data were processed

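Bowtie (version not given) and hg19 were used for the eIF3a reads, per the submitters' processing notes. How clusters were called and filtered, and how duplicates and replicates were handled, is not stated there. The authors deposited 1 list without a header, in which the signal (score) of an entry is the highest read coverage, in whole reads and not normalized. The other value the authors deposited is a coverage profile of length and height steps.

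Each profile was split into reads of 25 nt. The calculation was tested on simulated coverage, rebuilt with the same read length from shuffled read starts. That test cannot tell whether the real reads were 25 nt long. Entries of the same strand and profile at the same place were counted as 1 cluster. Primary chromosomes were 1 to 22, X and Y. Coordinates are printed from 1, reading the list as 0-based. Groups came from the sample titles. No comparison of groups was possible. XPO1, its window and the comparisons were chosen with earlier results of these data known. By the rule for named sites, all XPO1 clusters and up to 3 regions with as many clusters were described; 2 such regions existed. A list of nuclear transport genes and sequence motifs were not analysed, because no hg19 annotation or genome was used. Alternatives covered counting, the window, gaps, summits and the joining distance. Calculations used Python 3.11.15, numpy 2.4.6, scipy 1.17.1 and matplotlib 3.10.9.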

Additional observations from a re-analysis of the deposited data

How the results depend on the processing

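The number of clusters at XPO1 was 5 after merging overlapping clusters, with scores at or above the list median of 5, and with entries wholly inside the window. Joining neighbours, chosen after seeing the data, gave 4 blocks at 2 nt, 2 at 10 nt and 1 at 26 nt, which follows from the gaps. The lowest XPO1 score was 5, so the score filter could remove no cluster. No XPO1 clusters overlapped and all lay well inside the window, so the other alternatives could not change the number either. Reads were 117 when each entry was counted, and also with profiles found at other loci left out. Neither could change the count, because each cluster had 1 entry and no profile occurred elsewhere. Summed gaps were 41 nt between listed intervals, again 41 nt with the score filter, and 37 nt between full profiles. The summit of the most downstream cluster lay 54 nt from its right end, or 60.5 nt by the median read centre. In the third cluster, where the highest coverage occurs at 2 places, these values were 227 and 151 nt. The rank by reads was 7, and 6 and 8 with regions joined at 500 and 5000 nt; it was 6 with overlapping clusters counted as 1 place, an alternative chosen after seeing the data. No paired analysis was possible because both replicates share 1 list. Library depth is unknown, and the smaller clusters rest on 8 and 11 reads.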
